A study of Mus musculus with 36 samples.

Results

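The cytosolic ribosomal protein genes encode the protein components of the cell's ribosome. Members were taken from the deposited table by symbol: names of the form Rpl or Rps followed by a number (with a, x, l or y at most), the stalk proteins Rplp0, Rplp1 and Rplp2, plus Rpsa and Fau. The rule found 80 genes among the 19909 genes of the table, 33 for the small subunit and 47 for the large one, on 20 chromosomes. Of these, 77 are common members, and 3 are uncommon paralogues whose symbols end in l (Rps27l, Rps4l and Rpl32l). Rpl39l, Rpl3l and Rpl10l were not analysed here.

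The study sequenced RNA from 36 libraries, and all of them came from C57BL/6 animals at an age of 8 weeks. The 8 neurosphere libraries came from cells of the subependymal zone (SEZ), the stem cell niche beside the lateral ventricles, grown as non-adherent spheres with the mitogens EGF and FGF to passage 4, loaded with the dye DFFDA at 2 ug/ml and sorted after 4 days as DFFDA_H (4 libraries) or DFFDA_L (4 libraries). The 28 fresh libraries came from populations sorted directly from SEZ tissue, labelled Other (3 libraries), qNSC, pNSC, aNSC and NPC1 (4 libraries each), and NPC2, NB1 and NB2 (3 libraries each). The labels call replicates biological without naming animals, so p-values reflect only how these libraries spread. The sources used here do not give the gates of the sorts. No group carries an allele or a transgene in the labels.

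A ribosome is built in the nucleolus from ribosomal RNA and 1 copy of nearly every ribosomal protein, so the genes for these proteins are usually expressed together. Their mRNAs commonly start with a C followed by a run of pyrimidines, the 5′ terminal oligopyrimidine (TOP) tract, through which TOR signalling controls their translation. In the adult SEZ, stem cells that leave quiescence are known to raise protein synthesis, and some ribosomal proteins have paralogues whose use differs between tissues.

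The sequences that separate an uncommon gene from its common partner are shown first, because the reads that can be assigned to each depend on them. The stretches are the first 90 coding bases from the GENCODE M21 transcripts (GRCm38), 5′ to 3′, and capitals mark the bases that differ within a pair. Rps27l lies at chr9:66946086-66949516 on the plus strand and Rps27 at chr3:90212522-90213651 on the minus strand.
Rps27l: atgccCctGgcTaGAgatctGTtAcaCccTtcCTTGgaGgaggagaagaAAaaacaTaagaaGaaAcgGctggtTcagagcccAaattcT
Rps27: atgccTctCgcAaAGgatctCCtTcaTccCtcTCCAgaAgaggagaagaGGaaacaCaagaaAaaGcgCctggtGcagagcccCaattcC
Rps4l lies at chr6:148354656-148355598 on the plus strand, where it is annotated as a transcribed processed pseudogene, and Rps4x at chrX:102184941-102189394 on the minus strand.
Rps4l: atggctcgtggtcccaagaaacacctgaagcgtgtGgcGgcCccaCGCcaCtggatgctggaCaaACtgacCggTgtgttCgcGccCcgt
Rps4x: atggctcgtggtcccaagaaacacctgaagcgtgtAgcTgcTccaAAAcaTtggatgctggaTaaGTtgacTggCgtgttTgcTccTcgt
Rpl32l lies at chr10:20208490-20208888 on the plus strand, where it is annotated as a processed pseudogene, and Rpl32 at chr6:115805505-115808747 on the minus strand.
Rpl32l: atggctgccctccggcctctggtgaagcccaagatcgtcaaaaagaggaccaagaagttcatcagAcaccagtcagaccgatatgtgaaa
Rpl32: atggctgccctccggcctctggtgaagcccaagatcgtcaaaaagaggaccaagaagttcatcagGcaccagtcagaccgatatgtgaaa
Over the aligned coding bases, Rps27l was 76.19% identical to Rps27 and Rps4l was 79.95% identical to Rps4x, so reads of these pairs differ at many bases. Rpl32l was 97.49% identical to Rpl32, with 1 gap, so a read of either can match both.

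Promoter sequences from RefSeq (GRCm38.p6) were matched for 59 of the 80 members. A TOP-like run, here a C followed on the gene's strand by at least 6 C or T within 30 bases of the start, stood in 36 of the 59 (61%), against 26.5% of all 27025 promoters. The windows of 4 genes whose values are described below, from 30 bases before to 20 bases after the start on the gene's strand, show genes with the run (in capitals) and without it.
Rpl4 (chr9:64173357-64173406, plus strand): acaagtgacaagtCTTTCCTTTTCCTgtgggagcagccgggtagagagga
Fau (chr19:6057917-6057966, plus strand): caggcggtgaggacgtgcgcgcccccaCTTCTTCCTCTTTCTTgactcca
Rps6 (chr4:86857348-86857397, minus strand): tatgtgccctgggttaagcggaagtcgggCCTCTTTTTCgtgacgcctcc
Rpsa (chr9:120127736-120127785, plus strand): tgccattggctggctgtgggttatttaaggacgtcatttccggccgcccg
Other letters were searched on both strands over 250 bases before to 50 bases after the start. CCGGAAG, the core bound by GABP and other ETS factors, was in 39% of member promoters and 9.19% of all promoters, and the GC box GGGCGG was in 59.3% of member promoters and 36.2% of all. TATAAA was in 10.2% of member promoters and 14.2% of all. AAGATGGCG, the YY1 motif, was in 5.08% of member promoters and 1.53% of all. A match describes these letters only, and motifs can overlap one another. The run printed for Rpl4 lies before the annotated start, so a TOP-like run need not be part of the mRNA. Its absence near that start does not show that an mRNA lacks a TOP tract.

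Values are the authors' deposited log2 values, whose scale resembles a log2 of counts scaled to a common total. Column medians also lay within 3.53 to 3.56, so a further step, such as quantile normalisation, may have made the columns alike. The sources used here do not state it. Shares of the signal given below are shares of these values and not of reads. Read depth is unknown: 362 to 604 genes sat at a library's lowest value in neurosphere libraries and 617 to 3932 in fresh libraries, with the highest number in a qNSC library. Summed astroglial and cycling markers followed the labels. Astroglial and stem cell markers ran from 13.57 to 13.74 (log2 of the sum) in qNSC and from 13.38 to 13.72 in pNSC. In aNSC they ran from 10.51 to 11.32. The markers called cycling here and below are a mixed list of 6 activated stem cell and cycling genes, so they do not measure division alone. This list ran from 7.574 to 7.931 in qNSC, from 9.128 to 10.24 in pNSC and from 11.53 to 11.67 in aNSC. Markers of other cell types also differed between populations, as given below. In bulk samples, fewer cells of a type and less RNA per cell cannot be told apart.

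The ribosomal protein genes moved as a block across the fresh populations. Their median log2 value was 4.91 ± 0.173 in qNSC, 5.48 ± 0.337 in pNSC, 6.48 ± 0.176 in aNSC and 6.78 ± 0.203 in NPC1 (SD, n = 4 each). It was 6.97 ± 0.114 in NPC2, 6.47 ± 0.337 in NB1 and 6.10 ± 0.384 in NB2 (SD, n = 3 each). In this order, the level was lowest in qNSC, highest in NPC2 and lower again in NB2. The single qNSC libraries had medians from 4.746 to 5.068, pNSC libraries from 5.044 to 5.771 and aNSC libraries from 6.243 to 6.65, so qNSC and pNSC libraries met at their edges and aNSC libraries lay above both. Of the 80 genes, 77 had their lowest group mean among the 7 named populations in qNSC, and 70 had their highest in NPC2. The population labelled Other was above all of them, with a median of 7.40 ± 0.398 (SD, n = 3). The neurosphere populations had 5.99 ± 0.216 in DFFDA_H and 6.03 ± 0.154 in DFFDA_L (SD, n = 4 each).

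**Figure D1:**
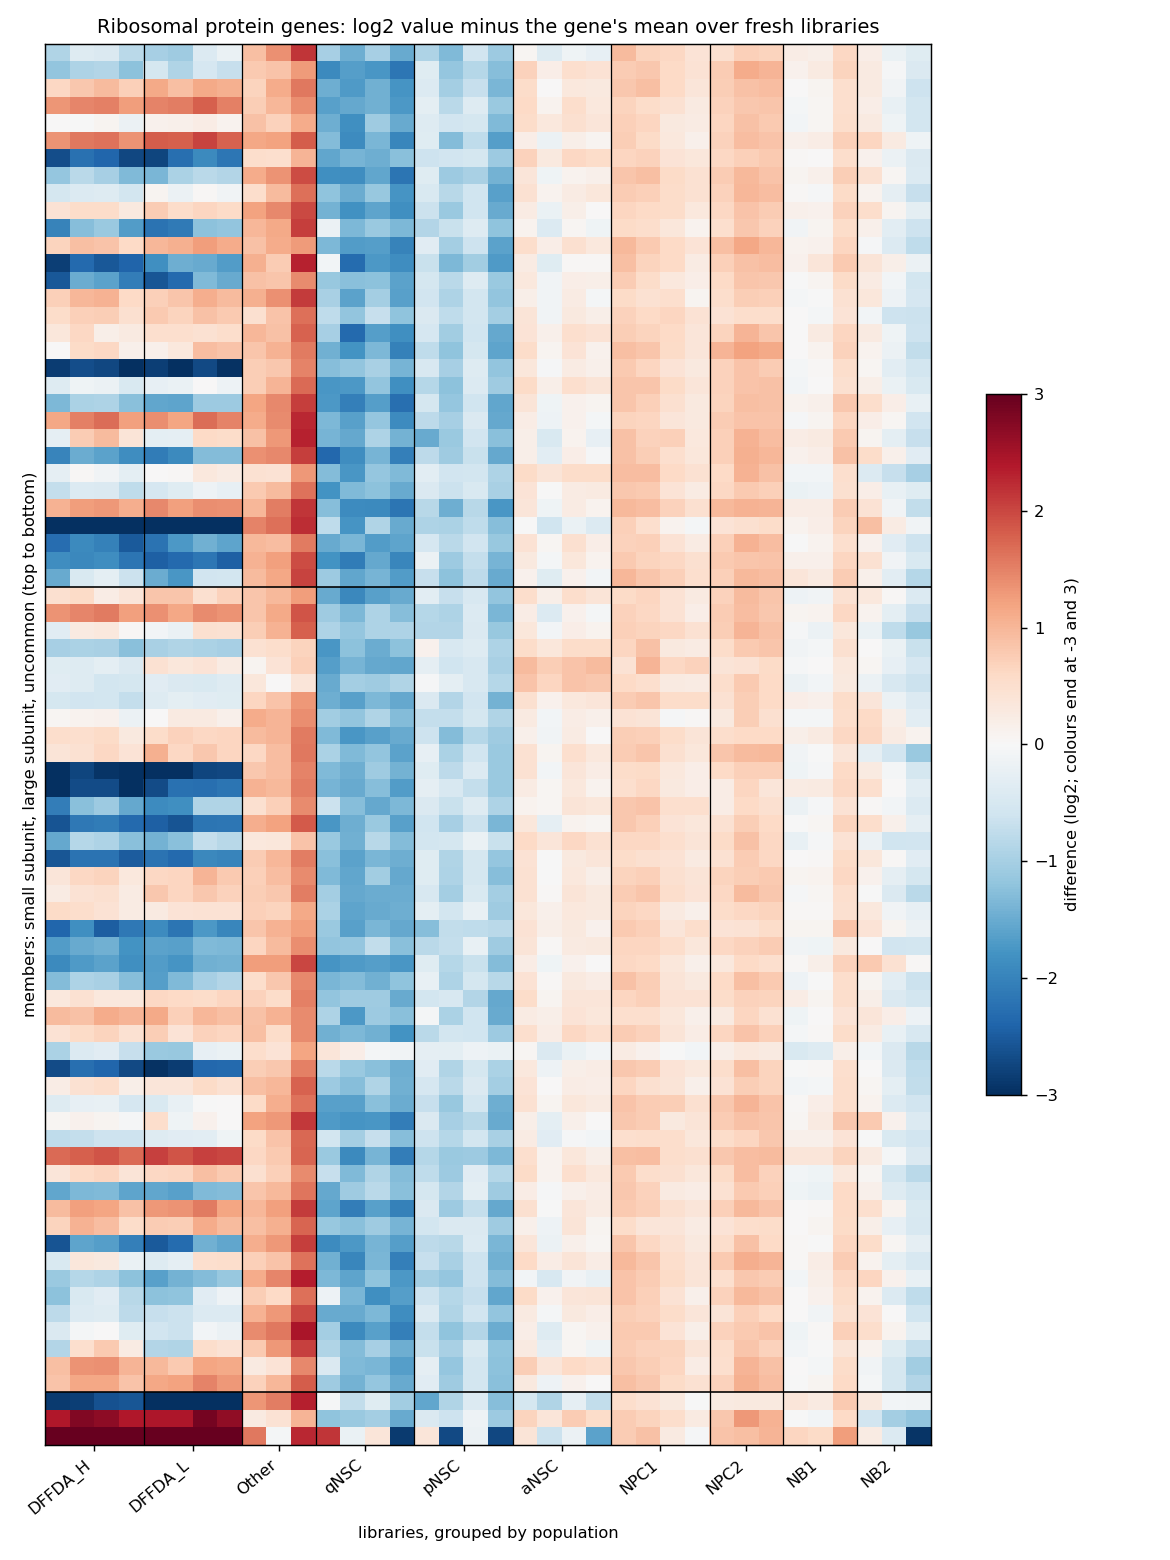
Log2 values of the 80 ribosomal protein genes (rows) in the 36 libraries (columns, grouped by population), shown as the difference from the gene's mean over the 28 fresh libraries, with colours ending at -3 and 3. Most rows are low in the qNSC libraries and high in NPC2 and Other, while a set of rows is low in the 8 neurosphere libraries.

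The summed share of the table's signal gave the same order among the 8 fresh populations. Ribosomal protein genes took 0.289% of the summed linear signal in qNSC, 0.455% in pNSC, 0.920% in aNSC, 1.12% in NPC1, 1.26% in NPC2, 0.883% in NB1 and 0.705% in NB2. The share was 1.74% in Other. The neurosphere populations took 0.855% in DFFDA_H and 0.975% in DFFDA_L, and stand higher in this order than by their medians. Across the 28 fresh libraries, 74 of the 80 genes correlated above 0.9 (Pearson) with the median of the other members, which is a description, since the libraries share their groups. The genes that followed the block least were Rpl23a (r = 0.495), Rpl32l (0.556), Rps4l (0.764), Rpl5 (0.816), Rpl4 (0.869) and Rps27l (0.881). All 3 uncommon members are among these 6.

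**Figure D2:**
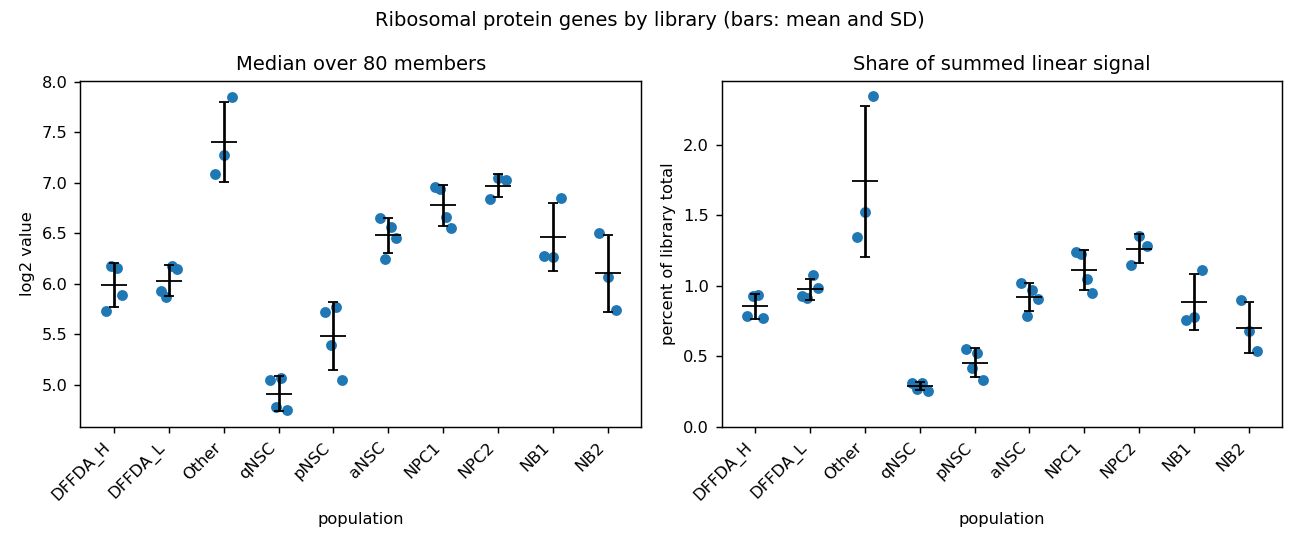
Median log2 value of the 80 ribosomal protein genes (left) and their percent of the summed linear signal (right) in each library (points), by population, with bars for the group mean and SD. Both climb over qNSC, pNSC, aNSC, NPC1 and NPC2, are lower in NB1 and NB2, and are highest in Other.

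The pNSC libraries were compared with the qNSC libraries. Of the 79 members that passed the filter on low values in fresh libraries (Rpl32l did not), 43 were higher in pNSC and 0 were lower (limma, Benjamini-Hochberg adjusted p under 0.05 over all 17788 genes tested). Of all genes tested, 14.2% were called higher and 8.06% lower. At an unadjusted p under 0.05, 61 members were higher and 0 lower. The members' median log2 change was 0.60, which is 1.51-fold, against -0.05 over all genes. Of the small-subunit genes 19 of 33 rose, and of the large-subunit genes 24 of 46. Rpl3, a protein of the peptidyl transferase centre, had 7.26, 6.67, 6.76 and 6.21 in pNSC, against 5.40, 5.90, 5.65 and 5.91 in qNSC. Every pNSC library was above every qNSC library, and the log2 change was 1.01 ± 0.19 (SE; limma adjusted p = 0.000313). Rps28, of the small subunit near the mRNA exit, rose by 1.00 on the log2 scale, and Rplp0, the base of the stalk that recruits elongation factors, by 0.97. Rpl23a, at the exit of the peptide tunnel, went against the block, with 5.76, 5.72, 5.86 and 5.82 in pNSC, against 6.39, 6.21, 5.96 and 5.91 in qNSC. The groups did not overlap, but the change of -0.33 did not pass (limma adjusted p = 0.176). Rpl28 (0.13), the stalk protein gene Rplp2 (0.15) and the uncommon Rps4l (-0.49) did not pass either. Summed neuroblast markers also differed, from 8.742 to 10.36 in pNSC against 6.996 to 7.709 in qNSC with all 7 of the list above the floor, and their part in the result was not tested. With only these groups fitted, 18 members were higher. Without pNSC replicate 1, 26 were higher, and without pNSC replicate 3, 1 was lower.

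To see which genes moved unlike the block, the median of the ribosomal protein genes was subtracted in each library and limma was run again. In pNSC against qNSC, 14 members differed from the median, 8 above and 6 below it, where 37.9% of all genes differed from it. Those above it included Rpl3, Rps28, Rplp0, Rps19, Rpl4, Rpsa and Rps3. Below it were Rplp1, Rplp2, Rps15, Rpl28, Rpl23a and Rps4l. Both acidic stalk proteins, which dimerise on Rplp0, were thus below the median while Rplp0 was above it. The count was 9 without qNSC replicate 3, qNSC replicate 4 or pNSC replicate 2, 5 without pNSC replicate 1, and 2 with only these groups fitted.

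The aNSC libraries were set against both earlier populations. Against pNSC, 77 of 79 members were higher in aNSC and 0 lower (limma, adjusted p under 0.05), where 28.4% of all genes were higher and 19.9% lower. At an unadjusted p under 0.05 the members' counts were also 77 and 0. Their median change was 1.01 (2.02-fold), against 0.22 over all genes. Against qNSC, 77 were higher and 0 lower, again with 77 and 0 at an unadjusted p under 0.05, where 35.3% of all genes were higher and 27.1% lower. The median was then 1.66 (3.16-fold), against 0.19 over all genes. The small-subunit median was 1.80, with 32 of 33 genes higher, and the large-subunit median was 1.63, with 45 of 46 higher. These comparisons share libraries, so they are not independent of each other. Astroglial, cycling and mural markers differ between the populations too (mural from 1.177 to 3.163 in aNSC, against 6.93 to 7.393 in qNSC, with 6 of 7 found). Mature neuron markers (6 of 7 found) ran from 8.33 to 8.794 in qNSC, against 5.138 to 5.813 in aNSC. Oligodendrocyte markers ran from 8.74 to 9.481 in qNSC, against 7.688 to 8.006 in aNSC. Ependymal markers ran from 7.096 to 7.271 in qNSC, against 3.697 to 4.447 in aNSC. Microglial markers overlapped, at 7.298 to 8.917 in qNSC and 7.771 to 8.272 in aNSC. The part of these markers in the result was not tested.

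Rpl4, a large-subunit protein that lines the peptide tunnel, showed the largest change in both comparisons. It had 9.67, 9.45, 9.57 and 9.67 in aNSC, against 8.45, 8.11, 8.23 and 7.74 in pNSC and 7.06, 7.31, 7.17 and 7.16 in qNSC. The 3 populations did not overlap. The log2 change was 1.46 ± 0.15 against pNSC (limma adjusted p = 1.49e-08) and 2.41 ± 0.15 against qNSC (limma adjusted p = 3.97e-13). Rpsa, a small-subunit protein also known as a laminin receptor precursor, had 6.99, 6.51, 6.80 and 6.74 in aNSC, against 4.40, 4.65, 4.57 and 4.15 in qNSC, a change of 2.32 ± 0.19 (limma adjusted p = 4.25e-11). Its lowest aNSC library lay well above its highest qNSC library. Rpl32 rose by 2.101, Rplp0 by 2.05 and Rps19, the gene most often mutated in Diamond-Blackfan anaemia, by 2.04 against qNSC. Rps6, the substrate of S6 kinase, had 6.91, 6.53, 6.85 and 6.77 in aNSC, against 4.68, 4.83, 4.76 and 4.96 in qNSC, and rose by 1.96.

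Rpl5 and Rpl11, which bind 5S ribosomal RNA and can hold the p53 regulator Mdm2, rose by 1.91 and 1.55 in aNSC against qNSC. Rps27a and Fau, which are made as fusions with ubiquitin and a ubiquitin-like protein, rose by 1.84 and 1.06. The members that rose least against qNSC were Rpl28 (0.82) and Rps10 (0.90). Rpl23a did not follow: it had 6.09, 5.59, 5.82 and 5.94 in aNSC, against 6.39, 6.21, 5.96 and 5.91 in qNSC, and its change of -0.26 ± 0.17 did not pass (limma adjusted p = 0.202). Its groups overlapped. The uncommon Rps4l also did not pass, at -0.06 against qNSC (limma adjusted p = 0.837), while the uncommon Rps27l rose by 1.80. The span of Rpl23a overlaps 3 snoRNA genes, and 85.7% of this gene's 50-base stretches also occur in other genes. A part of read sharing in the Rpl23a values was not tested.

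With the block's median taken out, 32 members differed in aNSC against qNSC, 20 above and 12 below the median, where 70.7% of all genes differed from it. The 12 below were Rpl7, Rpl36, Rpl38, Rps15, Rplp1, Rplp2, Fau, Rps27, Rps10, Rpl28, Rps4l and Rpl23a. Against pNSC, 7 members differed, 5 above and 2 below, where 48.8% of all genes differed. The 5 above were Rpl4, Rpsa, Rps26, Rps16 and Rps18, and the 2 below were Rps4l and Rpl23a. The count of 7 became 2 without pNSC replicate 2 or aNSC replicate 1 and 4 without aNSC replicate 3 or aNSC replicate 4. It was 2 with only these groups fitted and 23 with library weights. Members with a TOP-like run near the annotated start had a median change of 1.63 against qNSC (35 genes tested) and those without it 1.81 (23 genes tested). Across the 77 common members, the change against qNSC correlated with transcript length at Spearman rho = 0.400, as a description across genes that share all their libraries. In NPC1 against aNSC the same relation had rho = -0.382.

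**Figure D3:**
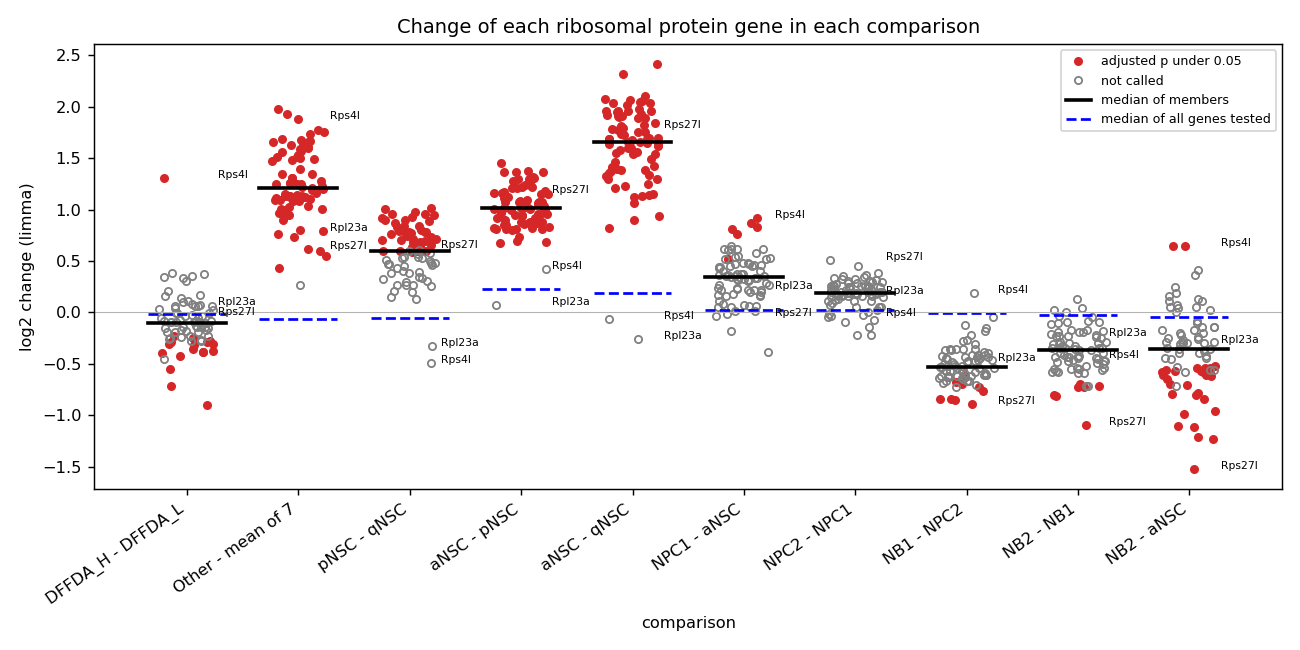
Log2 change of each ribosomal protein gene tested (points) in the 10 comparisons, with the members' median and the median of all genes tested. The members' medians are 0.60, 1.01 and 1.66 in the comparisons within qNSC, pNSC and aNSC, below 0 in the comparisons of NB1 and NB2, and 1.21 in Other.

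Between aNSC and the progenitors the median of the block changed less than in the earlier steps. In NPC1 against aNSC, 6 of 79 members were higher and 0 lower (limma, adjusted p under 0.05), where 6.24% of all genes were higher and 6.48% lower. The count moved with the choice of fit: 37 members were higher with only these groups fitted and 35 with library weights. At an unadjusted p under 0.05, 26 members were higher and 1 lower. The median change was 0.34 (1.27-fold), against 0.03 over all genes. The 6 genes were Rps4l, Rpl36, Fau, Rps29, Rps21 and Rpl7a. Fau had 6.97, 6.70, 6.64 and 6.42 in NPC1, against 6.08, 5.64, 5.89 and 5.77 in aNSC, a rise of 0.83 ± 0.21 (limma adjusted p = 0.0084). Its groups did not overlap. Rpl5 had the lowest change, at -0.39 (limma adjusted p = 0.114), followed by Rpl4, at -0.18. Relative to the median of the block, Rpl36, Fau and Rps29 were above and Rpl4 and Rpl5 below, which makes 5 members where 8.12% of all genes differed. Without aNSC replicate 2 or NPC1 replicate 1, 2 members were higher. The relative count was 12 with only these groups fitted and 28 with library weights, 2 without aNSC replicate 2, aNSC replicate 4 or NPC1 replicate 1, and 3 without aNSC replicate 3 or NPC1 replicate 3.

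In NPC2 against NPC1, 0 members were called higher and 0 lower by limma, where 0.202% of all genes were higher and 1.14% lower. At an unadjusted p under 0.05, 1 member was higher and 0 lower, and with library weights 5 were called higher. The median change was 0.19, and 70 of 79 changes were positive. Among common members, Rps16 had the largest value (0.46), and the lowest were Rpl10a (-0.22) and Rpl4 (-0.22). After the same subtraction 0 members differed by limma, where 0.416% of all genes did, and 6 did with library weights.

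The block was lower in the populations labelled NB. In NB1 against NPC2, 10 of 79 members were lower and 0 higher (limma, adjusted p under 0.05), where 3.88% of all genes were lower and 3.78% higher. At an unadjusted p under 0.05, 44 were lower and 0 higher. The median change was -0.53, and 78 of 79 changes were negative. The 10 were Rps27l, Rps16, Rpl8, Rplp2, Rplp0, Rps24, Rps27a, Rpl18, Rpl12 and Rpl5. Rps27l had 6.69, 6.64 and 7.30 in NB1, against 7.52, 8.02 and 7.76 in NPC2, and fell by 0.89 (limma adjusted p = 0.0138), with no overlap. Rpl10, which in yeast joins the large subunit late, in the cytoplasm, had a change of -0.04. The count of 10 moved with single libraries and with the choice of fit. It was 5, 0 and 1 without NPC2 replicates 1, 2 and 3 in turn, and 0, 0 and 22 without NB1 replicates 1, 2 and 3. It was 40 with only these groups fitted and 75 with library weights. Relative to the block, 0 members differed by limma, where 9.29% of all genes did. That count was 1 without NB1 replicate 3 or with only these groups fitted, 3 among genes at a mean log2 of at least 4, and 19 with library weights. Summed cycling markers (all 6) ran from 10.79 to 10.95 in NB1, against 11.42 to 11.54 in NPC2, and neuroblast markers (all 7) from 12.33 to 12.42 in NB1, against 11.59 to 11.8 in NPC2. Their part in the result was not tested.

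In NB2 against NB1, 7 of 79 members were lower and 0 higher (limma, adjusted p under 0.05), where 14.2% of all genes were lower and 10.4% higher. At an unadjusted p under 0.05, 22 were lower and 0 higher. The median change was -0.37, against -0.03 over all genes. They included Rps27l, Rps29, Rps24, Rplp2, Rpl8 and Rpl41. Rps27l had 6.14, 5.68 and 5.52 in NB2, against 6.69, 6.64 and 7.30 in NB1, and fell by 1.09 (limma adjusted p = 0.000816). All NB2 libraries were below all NB1 libraries, and its common partner Rps27 had a change of 0.03. Relative to the block, 4 members differed, where 16.9% of all genes did, and Rps24, Rps29 and Rps27l were the 3 below. The count of 7 was 1 without NB1 replicate 3, 20, 2 and 1 without NB2 replicates 1, 2 and 3, and 11 with the replicate number as a block. It was 12 with only these groups fitted, 13 among genes at a mean log2 of at least 4, and 41 with library weights. The relative count was 2 without NB1 replicate 1, NB1 replicate 2 or NB2 replicate 3, and 1 without NB2 replicate 2 or with only these groups fitted. Cycling markers ran from 8.356 to 8.45 in NB2, against 10.79 to 10.95 in NB1, and neuroblast markers from 12.96 to 13.11 in NB2, against 12.33 to 12.42 in NB1. Their part was not tested.

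Over the longer step, NB2 against aNSC, 27 of 79 members were lower and 2 higher (limma, adjusted p under 0.05), where 27.1% of all genes were lower and 23.6% higher. The median change was -0.36, against -0.05 over all genes, and changes ran from -1.52 to 0.65. Calls went in both directions here. Rps27l fell most, by 1.52 (limma adjusted p = 1.51e-06), and Rpl5 fell by 1.23, Rps24 by 1.21, Rpl39 by 1.11 and Rpl4 by 1.101. Rpl5 had 6.51, 6.21 and 6.05 in NB2, against 7.55, 7.34, 7.55 and 7.51 in aNSC. Its groups did not overlap. The 2 higher genes were Rps27, at 0.65 ± 0.25 (limma adjusted p = 0.0333), and Rps4l, at 0.64 (limma adjusted p = 0.0448). Relative to the block, 26 members differed, 15 above and 11 below, where 44.0% of all genes did. The lower count was 15 without NB2 replicate 2, 13 without NB2 replicate 3 and 50 with library weights. The higher count was 1 without aNSC replicate 1 and 0 without aNSC replicate 2, aNSC replicate 4, NB2 replicate 1 or NB2 replicate 2, 1 with the replicate block, and 4 with library weights. Summed cycling markers were at most 8.45 in NB2 and at least 11.53 in aNSC, and their part was not tested.

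The population labelled Other had the highest levels. Against the average of the 7 named populations, each with the same weight, 78 of 79 members were higher and 0 lower (limma, adjusted p under 0.05), where 25.9% of all genes were higher and 28.4% lower. The counts at an unadjusted p under 0.05 were also 78 and 0. The median change was 1.21 (2.31-fold), against -0.06 over all genes. Rpl37a, a zinc-finger protein of the large subunit, had 7.61, 7.77 and 8.64 in Other, against 4.12 at the lowest, 6.24 at the median and 7.03 at the highest in the 25 libraries of the named populations. It rose by 1.98 ± 0.21, and the groups did not overlap. Rps27 (1.93), Rps4l (1.88) and Rpl36 (1.78) followed. Rpl5 did not pass, at 0.26 (limma adjusted p = 0.108), and Rpl4 (0.43) and Rpl12 (0.55) rose least among those that did. Rpl4 and Rpl5 thus had larger changes in aNSC against qNSC than here. After subtraction of the block's median, 36 members differed, 23 above and 13 below, where 76.5% of all genes did. The Other libraries also held endothelial RNA. All 7 endothelial markers were found, with summed log2 values from 9.283 to 10.84 in Other and at most 3.384 in a named population. Microglial markers (all 9) ran from 8.712 to 9.661 in Other and up to 9.343 in a named population, mural markers (6 of 7 found) from 7.142 to 10.89 in Other and up to 7.393 in a named population, and neuroblast markers (all 7) from 12.52 to 13.01 in Other and up to 13.11 in a named population. Those 3 lists overlapped between Other and the named populations. So did red cell markers (all 5), which ran from 5.478 to 8.886 in Other and up to 6.649 in a named population. Cycling markers (all 6) ran from 8.222 to 8.375 in Other, near the 8.356 to 8.45 of NB2. Mitochondrial genes took 0.6212 to 0.8289% of the signal in Other and at most 0.593% in any other fresh library. Other replicate 3 stood apart, with 2.35% of its signal in ribosomal protein genes, against 1.35% and 1.53% in replicates 1 and 2, and with 55 distinct values up to the median gene, against 99 or more in every other library. Without it, 74 members were higher and the median change was 0.983. The relative count of 36 was 14 with library weights. The part of these differences in the result was not tested.

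Between the cultured populations the medians of the block were close. In DFFDA_H against DFFDA_L, 1 of 80 members was higher and 17 were lower (limma, adjusted p under 0.05 over 15956 genes), where 21.6% of all genes were higher and 22.3% lower. The members' median change was -0.10, against -0.01 over all genes. Rpl4 had 8.36, 8.33, 8.43 and 8.29 in DFFDA_H, against 9.16, 9.05, 9.12 and 8.95 in DFFDA_L, and fell by 0.72 ± 0.07 (limma adjusted p = 8.58e-06). Every DFFDA_H library was below every DFFDA_L library. Rps12, a small-subunit protein, had 0.76, 1.27, 1.04 and 1.18 in DFFDA_H, against 1.75, 2.13, 2.08 and 1.90 in DFFDA_L, and fell by 0.90 ± 0.21 (limma adjusted p = 0.00386). These Rps12 values are low, below the column medians of 3.53 to 3.56. Rpl10 fell by 0.55 and Rpsa by 0.39. The other lower members included Rpl28, Rpl14, Rpl8, Rps24, Rplp0, Rpl32, Rpl41, Rps2, Rpl6 and Rpl29.

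The 1 member higher in DFFDA_H was the uncommon Rps4l, with 1.90, 1.95, 2.16 and 2.1997 in DFFDA_H, against 0.96, 0.77, 1.65 and -0.38 in DFFDA_L. Its change was 1.304 ± 0.35 (limma adjusted p = 0.00836), at levels near the bottom of the table. Members whose span overlaps a snoRNA gene had a median change of -0.23 (29 genes, 9 lower) and the others -0.09 (51 genes, 8 lower). Relative to the block, 3 members differed, where 30.6% of all genes did: Rps4l was above, and Rps12 and Rpl4 were below. Summed cycling markers (all 6) ran from 8.574 to 8.8 in DFFDA_H and from 9.237 to 9.564 in DFFDA_L, and their part was not tested. The lower count was 9 without DFFDA_H replicate 1, DFFDA_H replicate 4 or DFFDA_L replicate 3. The higher count was 3 without DFFDA_H replicate 4, 2 without DFFDA_L replicate 4, 3 with library weights and 0 among genes at a mean log2 of at least 4. The relative count was 8 without DFFDA_H replicate 1 5 without DFFDA_L replicate 3 or DFFDA_L replicate 4, 10 with library weights and 6 among genes at a mean log2 of at least 4.

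The ratio of each uncommon paralogue to its common partner was followed across the populations, and none of its planned tests passed after adjustment. The log2 ratio of Rps27l, a gene known as a p53 target, to Rps27 was 0.88 in qNSC, 1.25 in pNSC, 1.74 in aNSC, 1.09 in NPC1, 1.43 in NPC2, 0.69 in NB1 and -0.43 in NB2. It was -0.37 in Other. The ratio is not corrected for gene length, so its differences between populations are read and its sign is not. Among the 8 fresh populations the ratio was highest in aNSC and lowest in NB2 and Other, and in culture it was far higher, at 6.89 in DFFDA_H and 7.25 in DFFDA_L. Its difference was 0.86 in aNSC against qNSC and -0.65 in NPC1 against aNSC (both exact permutation p = 0.0286, two-sided, adjusted p = 0.0893 over 25 tests).

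The log2 ratio of Rps4l to Rps4x, the X-linked gene, had its lowest fresh value in aNSC. It was -0.79 in qNSC, -2.05 in pNSC, -2.75 in aNSC, -1.88 in NPC1, -2.21 in NPC2, -1.40 in NB1, -1.55 in NB2 and -0.88 in Other. Rps4l had 4.23, 3.88, 4.49 and 4.03 in aNSC and 4.72, 4.04, 4.40 and 3.72 in qNSC, groups that overlap. Rps4x averaged 6.905 ± 0.1047 in aNSC and 5.014 ± 0.3115 in qNSC (SD, n = 4 each). The difference was -1.95 in aNSC against qNSC and -1.25 in pNSC against qNSC (both exact permutation p = 0.0286, adjusted p = 0.0893). In culture it was -4.41 in DFFDA_H, against -5.88 in DFFDA_L, a difference of 1.48 (exact permutation p = 0.0286, adjusted p = 0.0893). With 4 libraries against 4, 0.0286 is the smallest p that this test can give.

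Paralogues outside the name rule were set beside these. The log2 ratio of Rpl22l1, a paralogue whose mRNA Rpl22 is known to repress, to Rpl22 was -0.05 in qNSC, -0.21 in pNSC, -0.71 in aNSC, -0.88 in NPC1, -0.63 in NPC2, -0.93 in NB1 and -2.08 in NB2. It was -1.80 in Other. The ratio differed by -0.67 in aNSC against qNSC (exact permutation p = 0.0286, adjusted p = 0.0893). The ratio of Rpl7l1 to Rpl7 was 0.80 in qNSC and -0.60 in Other, and that of Rpl36al to Rpl36a was -0.03 in qNSC and -0.59 in NB2. Of the 25 tests over 5 pairs and 5 comparisons, 0 reached an adjusted p under 0.05 by the exact permutation test, and 8 had an unadjusted p of 0.0286. No p could be smaller than that, so an adjusted p under 0.05 needed most of the 25 tests to stand at this value. The lack of calls therefore does not show that the ratios were unchanged.

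**Figure D4:**
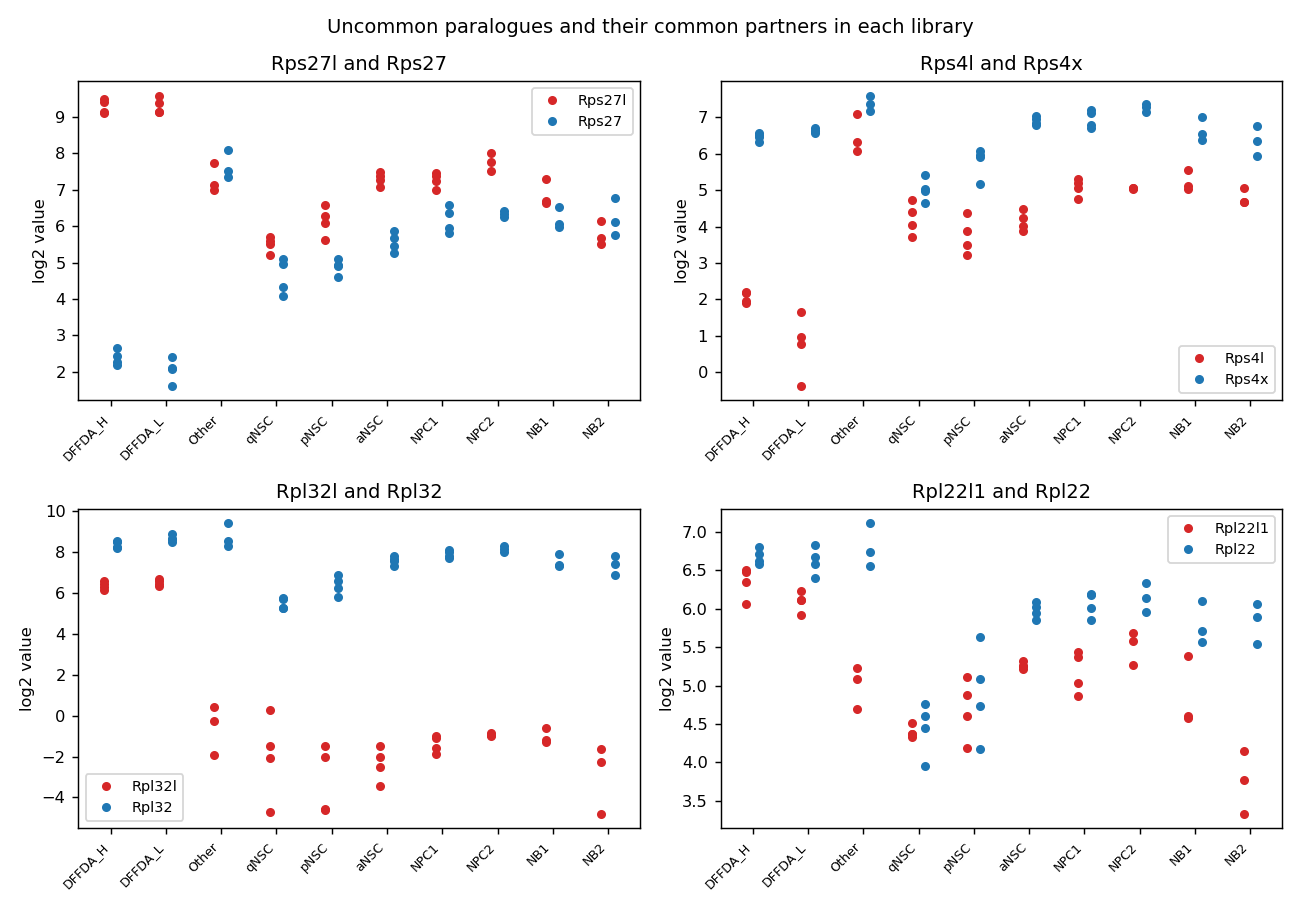
Log2 values of 4 paralogues (red) and their common partners (blue) in every library (points), by population. The uncorrected values of Rps27l and Rps27 differ by 6.89 in DFFDA_H and 7.25 in DFFDA_L on average and lie close together in Other and NB2, while Rpl32l is above 6 in the neurosphere libraries only.

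Most members overlapped between the neurosphere and the fresh libraries, and those that did not went in both directions. Culture and fresh sorting were separate experiments in the labels, so culture and batch cannot be told apart, and no test was made. Of the 80 members, 2 (2.5%) had all 8 neurosphere libraries above all 28 fresh ones, where 14.2% of all genes did. Another 11 members (13.75%) had them below, where 9.85% of all genes did. Those below included Rpl9, Rpl10, Rpl11, Rpl13, Rpl17, Rpl18, Rpl24, Rps6, Rps27 and Rps4l. Rps27 ran from 1.61 to 2.64 in neurosphere libraries (median 2.23) and from 4.09 to 8.07 in fresh ones (median 5.90). Rps27rt, a separate gene whose coding sequence is 100% identical to that of Rps27, differed the other way, running from 4.49 to 5.17 in neurosphere libraries and from -4.60 to 0.75 in fresh ones. Reads of these 2 genes cannot be told apart over their coding bases, so the levels of Rps27 and its ratio to Rps27l in culture are uncertain. The 2 above were uncommon members. Rps27l ran from 9.10 to 9.58 in neurosphere libraries (median 9.25) and from 5.21 to 8.02 in fresh ones (median 6.98). Rpl32l ran from 6.17 to 6.68 in neurosphere libraries (median 6.46) and from -4.79 to 0.40 in fresh ones (median -1.54). Rpl32l, the processed pseudogene 97.49% identical to Rpl32, was thus near the bottom of the table in fresh libraries only.

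The difference between cultured and fresh libraries went with how much sequence a member shares with other genes. For each member, the share of its 50-base stretches that also occur in another gene was counted in the GENCODE M21 transcripts. Across the 77 common members, this share and the difference between neurosphere and fresh means had a Spearman rho of -0.626 and a Pearson r of -0.636, as a description across genes. Among the 25 genes with the most sharing (72.3 to 98.7%), the median difference was -1.43 and 9 lay below all fresh libraries. Among the 26 with the least sharing (0 to 39.0%), the median difference was 0.56 and 0 lay below. The opposite held for pseudogene copies, the only copies counted here. Of 78 pseudogene rows outside the members that share at least 50% of their 50-base stretches with a member, 70 had all neurosphere libraries above all fresh ones. None had them below, where 14.2% of all genes were above and 9.85% below. The pseudogene Rps6-ps4 ran from 5.81 to 6.50 in neurosphere libraries and from 0.288 to 3.03 in fresh ones, while Rps6 itself was lower in all neurosphere libraries. Together these rows took 0.447% of the signal in neurosphere libraries and 0.0213% in fresh ones. With each member and its copies summed, rho was -0.367. Mitochondrial genes took 2.517 to 3.088% of the signal in neurosphere libraries and 0.2684 to 0.8289% in fresh ones. Whether reads were counted differently in the 2 sets of libraries was not tested, nor was the part of the mitochondrial difference. The neurosphere levels of single members, and the ratios of Rps27l and Rpl32l to their partners there, are read with these values beside them.

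**Figure D5:**
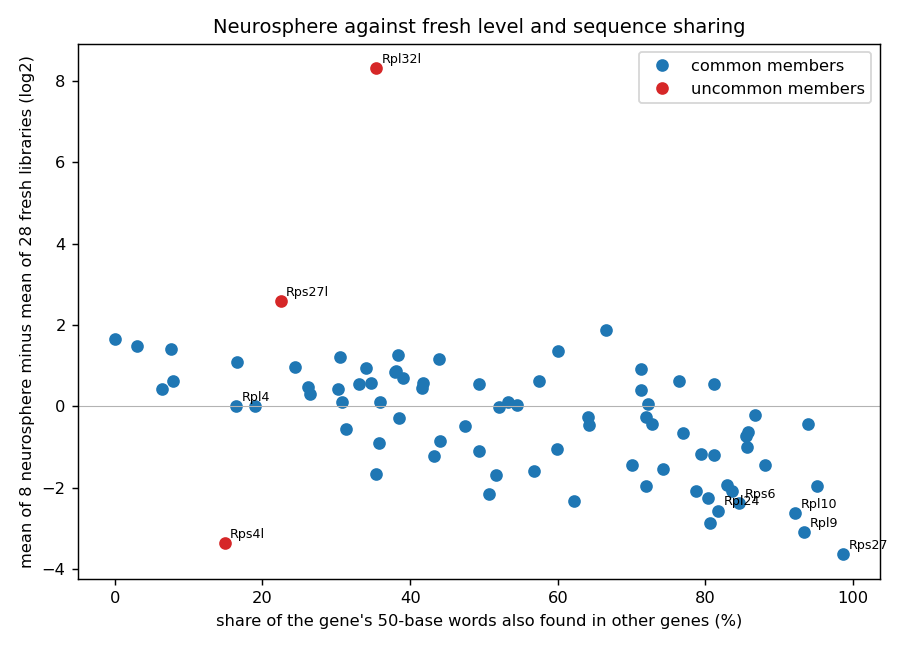
Difference between neurosphere and fresh mean log2 value of each ribosomal protein gene (vertical axis) against the percent of its 50-base stretches found in other genes (horizontal axis). Common genes with most of their sequence shared lie mainly below 0, with a median of -1.43 in the 25 genes that share most, while Rps27l and Rpl32l lie above 0.

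Levels between genes were compared per length only, as the fresh mean log2 value per kilobase of the gene's merged exons. Among the highest were Rpl4 (7.71) and Rps15 (7.46), and the lowest were Rpl32l (-0.53), Rps12 (2.57) and Rpl21 (2.70), around a median of 5.37. Rps27l had 7.004 per kilobase and Rps27 5.80, and Rps4l had 4.85 and Rps4x 5.78. Rpl32, the partner of Rpl32l, had 7.38. On this scale an uncommon paralogue was above its partner in 1 pair and below it in 2. The order depends on the length used, and the median was 6.52 with the longest coding transcript and 6.74 with the principal one.

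The genes around the ribosomal proteins were described by lists. Of all genes tested, 35.3% were higher and 27.1% lower in aNSC against qNSC. In Other, these shares were 25.9% and 28.4%, and in NB2 against aNSC 23.6% and 27.1%. They were 21.6% and 22.3% in DFFDA_H against DFFDA_L. Of 20 other translation genes with TOP mRNAs, 19 were higher in aNSC against qNSC and 0 lower (limma, as above), with a median of 1.41. Among them, the elongation factor gene Eef1a1 rose by 2.14, the nucleolar chaperone gene Npm1 by 2.46 and the ribosome-bound scaffold gene Rack1 by 1.99. In Other, 14 of these 20 were higher and 1 lower, with a median of 0.57, against 78 of 79 ribosomal protein genes with a median of 1.21. In NB2 against aNSC, 2 were higher and 8 lower, and in DFFDA_H against DFFDA_L, 0 were higher and 6 lower.

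Of 14 genes for chaperones and importers of ribosomal proteins, 13 were higher in aNSC against qNSC and 0 lower, with a median of 1.48. The importin gene Ipo7 rose by 2.02 and Grwd1, whose yeast counterpart is a chaperone for Rpl3, by 1.97. In Other, 3 were higher and 7 lower, where 25.9% of all genes were higher and 28.4% lower. The list's median was -0.27 there, so the chaperone list and the ribosomal protein genes had medians of opposite sign. The importin gene Ipo5 fell by 2.29 in Other. In DFFDA_H against DFFDA_L, 0 were higher and 10 lower, where 21.6% of all genes were higher and 22.3% lower. The list's median was -0.38, and Ltv1, needed to mature the small subunit, fell by 0.69. Of 18 TOR and Myc regulators, 7 were higher in aNSC against qNSC and 0 lower, where 35.3% of all genes were higher and 27.1% lower. Their median was 0.25, close to the 0.19 of all genes. Mycn rose by 3.81 and Eif4ebp1, a translation repressor under TOR, by 0.98, while Myc (-0.26) and Mtor (0.03) did not pass. In Other, 2 were higher and 9 lower, and Mycn fell by 1.02.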

How the data were processed

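Poly(A) libraries were prepared with the SMARTer Ultra Low chemistry and sequenced on a NextSeq 500, per the labels' protocols. The submitters' processing notes list limma, featureCounts, HISAT2, Trimmomatic, cutadapt and FastQC, without versions, roles or order. Builds named there are GRCm38 and mm10. The authors deposited 1 table of log2 values, 1 column per library. Its unit was read from the values: 2 raised to the values sums to 987637 to 987910 in every column, and column medians run from 3.53 to 3.56, so a change in total RNA cannot be seen. The kit does not mark strand, and exons of 23 members overlap another gene.

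The fresh libraries (28) and the neurosphere libraries (8) were fitted separately with limma 3.58.1 under R 4.3.3, using its trended, robust empirical Bayes step. A gene was kept when 3 or more libraries of any group had a log2 value of 0 or above. P-values were adjusted over all genes by Benjamini-Hochberg, with calls at 0.05. Paralogue ratios were tested by exact permutation, two-sided. Tests were checked on simulated data. Genes were matched to GENCODE M21 by identifier (all 80 members), and 1770 blank lines of the table were dropped. The members and lists were chosen with earlier results of these data known. Named genes were the common members with the 3 largest and 3 lowest changes per comparison, the paralogues with their partners, the 3 highest and 3 lowest levels per length, and a set of members with known roles. Some members are counted but their own results are not reported here. Same-numbered replicates deviated together in aNSC and pNSC (r from 0.176 to 0.269 in 4 of 4 pairs), a pairing taken from the data only, and the blocked fit changed no count there by over 1.5 times. Alternatives tried were other centrings and filters, library weights, fits of only the groups compared, the replicate block, other lengths and leaving out each library.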

Additional observations from a re-analysis of the deposited data

Results flagged for a closer look

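Of 156 sets of 4 libraries checked, 1 held a library far from the others, and chance alone would flag about 1 in 20. Rplp2, an acidic stalk protein gene, was at 5.206 in qNSC replicate 2, against 5.446 to 5.458 in the other qNSC libraries. That gap is 0.951 of the group's range, above Dixon's 95% critical value for 4 libraries.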

How the results depend on the processing

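All counts below are of ribosomal protein genes, by limma at an adjusted p under 0.05, and the cause of each shift was not tested. With only the groups compared in the fit, the counts were 18 higher and 2 apart from the block's median for pNSC against qNSC, 2 apart for aNSC against pNSC, 37 higher, 1 lower and 12 apart for NPC1 against aNSC, 40 lower and 1 apart for NB1 against NPC2, and 12 lower and 1 apart for NB2 against NB1. With library weights they were 23 apart for aNSC against pNSC, 35 higher, 1 lower and 28 apart for NPC1 against aNSC, 5 higher and 6 apart for NPC2 against NPC1, 75 lower and 19 apart for NB1 against NPC2, 41 lower for NB2 against NB1, 4 higher and 50 lower for NB2 against aNSC, 14 apart for Other, and 3 higher and 10 apart for DFFDA_H against DFFDA_L. With genes kept at a mean log2 of at least 4, they were 3 apart for NB1 against NPC2, 13 lower for NB2 against NB1, and 0 higher and 6 apart for DFFDA_H against DFFDA_L. With the replicate block, 11 were lower for NB2 against NB1 and 1 higher for NB2 against aNSC. The block moved no other count by over 1.5 times. In the labels, same-numbered samples share only a number. Some pairs outside aNSC and pNSC also deviated together. In DFFDA_H and DFFDA_L r ran from 0.007 to 0.483, over 0.1 in 3 of 4 pairs. In NPC2 and NPC1 it ran from -0.208 to 0.471, over 0.1 in 2 of 3 pairs.

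Leaving out each library in turn gave these ranges. For pNSC against qNSC, 26 to 57 were higher, 0 to 1 lower and 5 to 17 apart, with a median change from 0.522 to 0.763. For aNSC against pNSC, 75 to 78 were higher and 2 to 9 apart (median 0.865 to 1.12), and against qNSC 77 were higher each time and 27 to 33 apart. For NPC1 against aNSC, 2 to 7 were higher and 2 to 5 apart (median 0.282 to 0.422), and for NPC2 against NPC1 the median ran from 0.117 to 0.263 with 0 called. For NB1 against NPC2, 0 to 22 were lower and 0 to 1 apart (median -0.707 to -0.416). For NB2 against NB1, 1 to 20 were lower and 1 to 3 apart (median -0.569 to -0.204). For NB2 against aNSC, 0 to 2 were higher, 13 to 37 lower and 20 to 25 apart (median -0.542 to -0.204). For Other, 74 to 78 were higher and 25 to 37 apart (median 0.983 to 1.37). For DFFDA_H against DFFDA_L, 1 to 3 were higher, 9 to 20 lower and 2 to 8 apart (median -0.179 to -0.0742).

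The median level per kilobase was 6.52 with the longest coding transcript and 6.74 with the principal one. Among single genes, no direction reversed under any alternative run where the main or the alternative fit gave a call. Changes of sign with a call in neither fit were not counted as reversals. In all, 4067 values stayed on their side of the threshold while 129 lost and 89 gained a call. The medians of the block kept their sign in every alternative run. Read depth is not known, and low values rest on few reads. The relation with shared sequence, added after seeing the data, had rho = -0.689 with 75-base stretches. Sequences of proteins were not used here.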
